A study of Mus musculus with 207 samples.

Results

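The 69 cells described here are the single islet cells labelled Old in a study of pancreatic islet cells from male mice, and they were taken by that label alone from 207 cells in all. The Old cells came from mice aged 26 months and carry the titles Beta cell 139 to 207. The other 138 cells, labelled Young, came from mice aged 3 months. Both ages were handled alike: single islet cells were caught on a microfluidic C1 chip, SMARTer chemistry turned their RNA into amplified cDNA, and libraries were made with Nextera XT. The labels name no strain, genotype or treatment, and they do not say how many mice gave the cells or which mouse gave which cell. Each age is therefore 1 sample here, the spread given below is between cells and not between mice, and no test between ages or between cells was made.

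Beta cells make, store and release insulin in answer to glucose. Most of their messenger RNA codes for the cargo of the secretory granule: insulin, which mice make from a pair of genes (Ins1 and Ins2), and amylin, the product of Iapp, which is released together with insulin. The granule also carries granins and prohormone-cutting enzymes, and the load of newly made proinsulin is folded in the endoplasmic reticulum (ER) by a set of chaperones. Ucn3, a peptide of the corticotropin-releasing factor family, marks mature mouse beta cells, and Nupr1 is a small nuclear protein induced by cellular stress. Beta cells of 1 islet are known to differ among themselves in such markers, and it is these differences, cell by cell, that the values below describe.

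All values are TPM, a transcript's share of a cell's RNA scaled so that each cell sums to 1000000, and a gene is called detected in a cell at a TPM of 1 or above. TPM keeps no read count, so the depth behind a cell is unknown. The cells had between 1916 and 6007 detected genes, with a median of 4078. No 2 of the 69 columns were identical. The 69 cell numbers fall into 4 stretches that differ in RNA types which are not usually captured by their poly(A) tails: cells 139 to 158, 159 to 190, 191 to 199 and 200 to 207, with 20, 32, 9 and 8 cells. Mitochondrial ribosomal RNA had a median of 15199, 1387, 20335 and 1095 TPM in these stretches, in that order. The borders are not sharp: cell 200, at the start of the last stretch, had 11122 TPM of mitochondrial ribosomal RNA and 4430 of the nuclear RNA Malat1, while cells 201 to 207 had at most 2777 and 314. The labels do not say what the stretches are, so chip, mouse and day cannot be told apart, and values within the stretches are given beside the results they touch. Where a share of cells is given with an interval, it is a 95% Clopper-Pearson interval and covers counting error only.

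The label was first set against the marker genes. Ins2, Ins1 and Iapp were above 1 TPM in every one of the 69 cells. Ins2 ranged from 241326 to 643029 TPM with a median of 475520, Iapp from 15212 to 162566 with a median of 68486, and Ins1 from 16519 to 84485 with a median of 41678. Ucn3 was detected in 68 of 69 cells (98.6%, interval 92.2 to 100.0) and Nupr1 in 59 of 69 (85.5%, interval 75.0 to 92.8; 56.5% of the young cells). The spread was narrowest for Ins2 among these genes and wider for Iapp, while Ucn3 ran from 0.487 to 5061 TPM around a median of 688 and Nupr1 from 0 to 6942 around a median of 233. Every cell carried the hormone RNA of a beta cell.

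**Figure D1:**
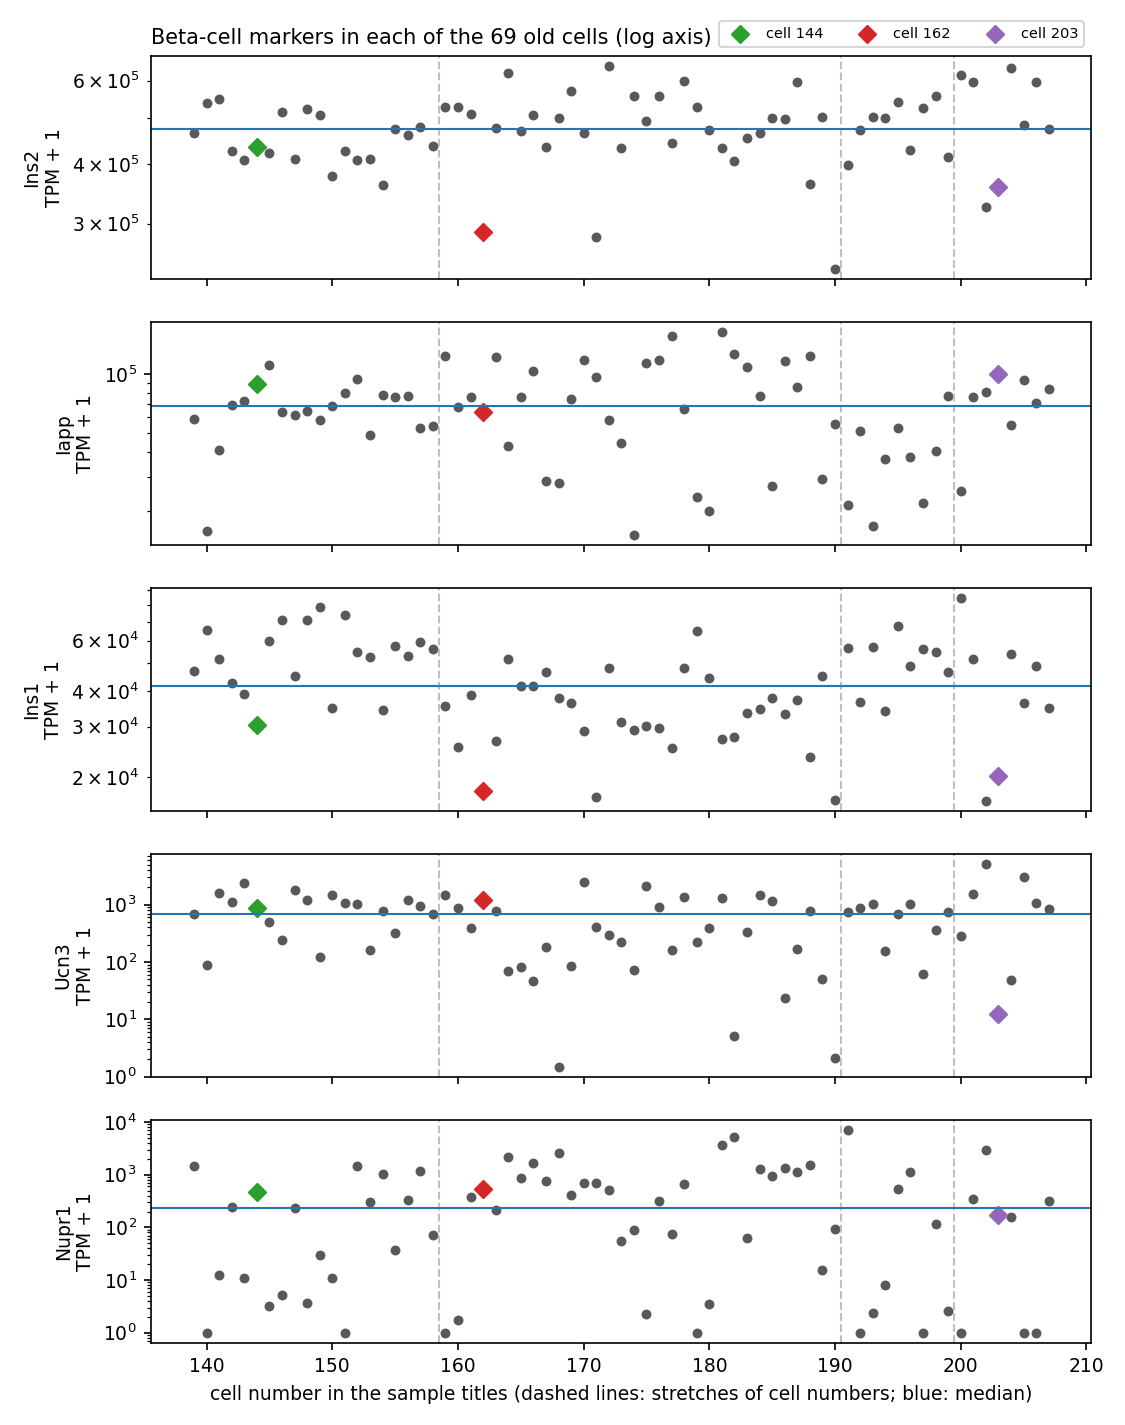
TPM + 1 (log axis) of Ins2, Iapp, Ins1, Ucn3 and Nupr1 in each of the 69 old cells, in order of the cell number in the sample titles. Each point is 1 cell, the blue line is the median, the dashed lines part the 4 stretches of cell numbers, and diamonds mark cells 144, 162 and 203, which carry markers of another cell type. Nupr1 spreads from 0 to 6942 TPM, whereas Ins2 stays between 241326 and 643029.

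3 of the 69 cells also held RNA of another cell type beside their insulin RNA. Cell 162 had all 10 of 10 macrophage markers, at 17321 TPM in sum. In the other 68 cells that sum did not pass 88.9 TPM. Its macrophage genes included Tyrobp, an adaptor of immune receptors (8197 TPM, against 2.67 in the next cell), Cd74, the invariant chain of class II antigen presentation (4343 against 13.1), Cd68, a lysosomal glycoprotein (2611 against 0.707), and Csf1r, the receptor for macrophage growth factor (189 against 0.189). Cell 203 had 3 of 3 Schwann-cell markers, at 119 TPM in sum against 0.474 in the next cell. These were the adhesion protein Cdh19 (92.2), the glial transcription factor Sox10 (25.0) and the calcium-binding protein S100b (1.67). Cell 144 had 6 of 8 endothelial markers, at 344 TPM in sum, led by Emcn (196) and Kdr (109), a receptor for vascular endothelial growth factor.

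Insulin made up 30.5% of TPM in cell 162, 37.8% in cell 203 and 46.5% in cell 144, against a median of 51.7% over the 69 cells. Their detected genes numbered 4412, 4929 and 5285, which placed them at rank 23, 8 and 4 of 69. Counting genes at 100 TPM or above that were at least 10 times as high as in any other old cell, cell 162 had 89, cell 203 had 41 and cell 144 had 21. The other 66 cells had between 0 and 18 such genes, with a median of 5. Whether more than 1 cell entered the capture site was not tested. These 3 cells were picked out after their values were seen, and each result that moves without them is given with and without them.

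**Figure D2:**
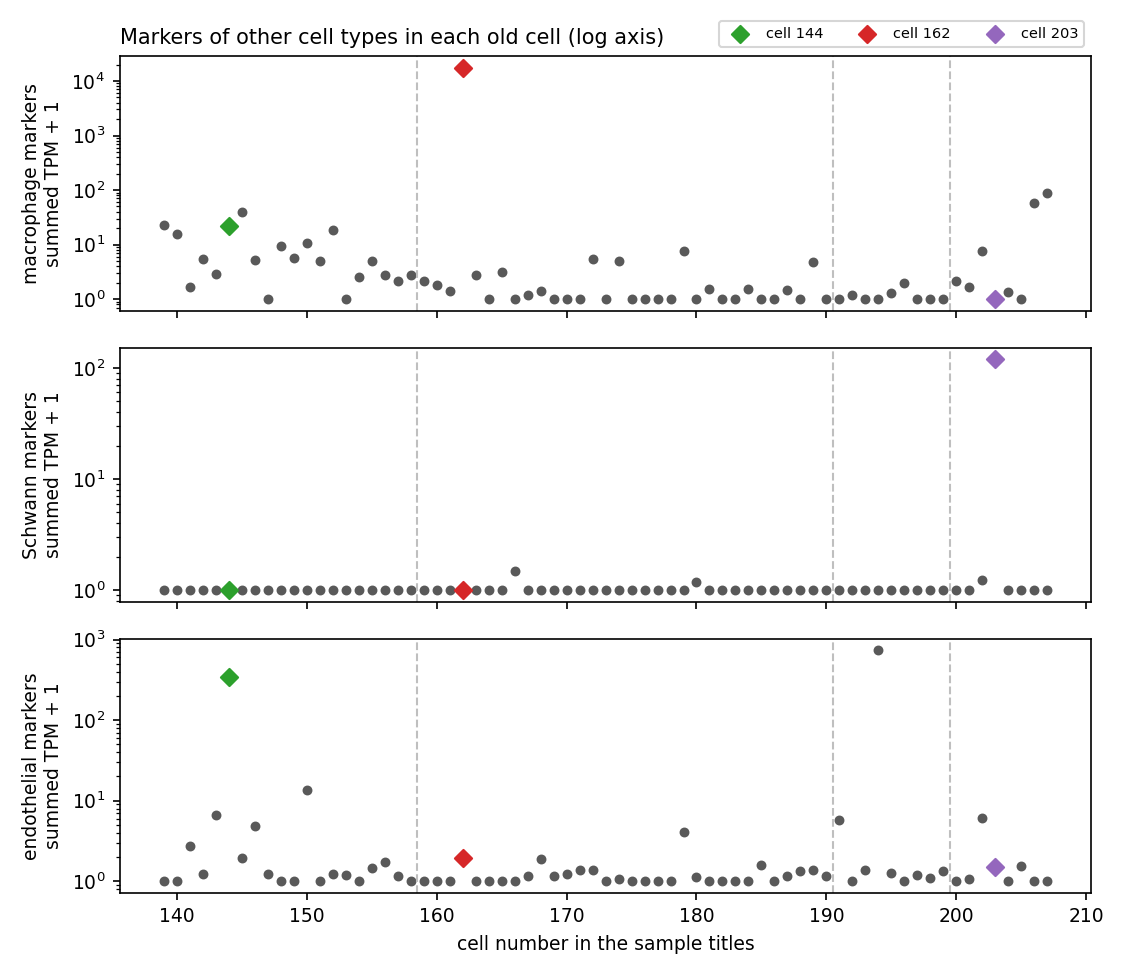
Summed TPM + 1 (log axis) of 10 macrophage, 3 Schwann-cell and 8 endothelial markers in each of the 69 old cells, by cell number. Cell 162 stands at 17321 TPM for macrophage markers and cell 203 at 119 for Schwann-cell markers. For endothelial markers, cell 144 (344 TPM) carries 6 of the 8 genes, and the higher point, cell 194 at 738 TPM, rests on Esam.

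Markers of other pancreatic cells were uneven. Of 16 acinar markers, 10 were detected in no old cell and the largest sum was 86.2 TPM. Of 8 mesenchymal markers, 7 were detected in no cell, with a largest sum of 1.95 TPM. Of 10 ductal markers, 4 were detected in no cell, among them Krt19 and Sox9, while 34 of the 69 cells had 3 or more at 10 TPM or above, and the sum reached 6969 TPM in cell 177. This list was carried by the keratins Krt7 (62 cells), Krt18 (60) and Krt8 (52) and by Spp1, the secreted phosphoprotein osteopontin, which was detected in 19 of 69 cells (27.5%, interval 17.5 to 39.6) and reached 6559 TPM in cell 177 and 5097 in cell 207. Hormones of other islet cells were present in most cells. Sst, the hormone of delta cells, was detected in 64 cells with a median of 67.6 TPM and passed 1000 TPM in 6 cells, with 1579 in cell 183. The delta-cell list of 8 markers had 3 or more at 10 TPM or above in 0 of the 69 cells. Pyy, peptide YY, was detected in 66 cells with a median of 19.8 TPM and passed 1000 TPM in cell 206 alone (2101). The pancreatic polypeptide list, which holds Ppy and Pyy, had 3 or more markers at 10 TPM or above in 7 cells. Gcg, glucagon, never passed 246 TPM. The alpha-cell list had 3 or more markers at 10 TPM or above in 12 cells and reached 2620 TPM in sum in cell 207, of which Tmem27, a membrane protein also found in beta cells, gave 2375. Gcg differed with the stretches, which held 45.8% of its variance.

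The RNA of these cells was concentrated in few genes. Ins1 and Ins2 together made up 51.9 ± 9.14% of TPM (SD over 69 cells; lowest 25.8% in cell 190, median 51.7%, highest 69.9% in cell 200). The median share of insulin was 49.7, 52.7, 53.5 and 58.2% in the 4 stretches. Iapp added 6.99 ± 3.41% (1.52 to 16.3%) and the 13 protein-coding genes of the mitochondrial genome 12.9 ± 7.38% (3.21 to 33.9%). The 2 mitochondrial ribosomal RNAs held 0.944 ± 1.14%, and all other genes shared the remaining 27.3 ± 8.36%. The 10 genes of highest mean held 71.1% of the mean TPM, the top 100 held 80.5% and the top 1000 held 90.8%. Ins2 alone held 47.6%. 29 genes had a mean of 1000 TPM or above, 493 of 100 or above and 3955 of 10 or above.

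After Ins2, Iapp and Ins1, the most abundant genes were mitochondrial: mt-Co3, a subunit of cytochrome oxidase, had a mean of 34400 TPM, and mt-Co2, mt-Cytb, mt-Atp8, mt-Nd1, mt-Nd4, mt-Atp6, mt-Rnr2 and mt-Co1 followed, together with Gm10925, a nuclear copy of a mitochondrial gene that shares its reads. The most abundant nuclear coding genes after the hormones were Ubb, a ubiquitin gene (4646 ± 2374 TPM), Resp18, a secretory-granule protein (2617 ± 1642), Ftl1, ferritin light chain (2117 ± 3585), the ribosomal protein Rpl41 (1982 ± 924), and the granule proteins Scg2 (1786 ± 1484), Cpe, which trims prohormones after cutting (1753 ± 1651), and Chga (1552 ± 1288). Ubb ranged from 263 to 9819 TPM.

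The ratio of hormone transcripts was itself variable. Ins2 exceeded Ins1 in all 69 cells, by 5.81-fold in cell 151 up to 20.7-fold in cell 160, with a median of 12.0-fold. Iapp exceeded Ins1 in 46 of the 69 cells. Ins1 and Ins2 are close copies, so reads in their shared stretches may be split between them.

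Of 44448 rows, 17249 were detected in at least 1 old cell and 27199 in none. 129 genes were detected in all 69 cells, 555 in at least 90% and 2548 in at least 50%. At the other end, 6684 genes were detected in 1 to 5 cells, of which 2874 in 1 cell only. The 129 genes were 83 nuclear protein-coding genes, the 13 mitochondrial ones, 28 pseudogenes and a few other RNAs. They included 25 of 78 ribosomal proteins, 5 of 7 granins and 5 of 20 ER chaperones (Hspa5, Hsp90b1, Canx, Calr and Ero1b). Also among them were the insulin-processing enzymes Pcsk2 (36.8 to 1546 TPM) and Cpe, the glucose-6-phosphatase subunit G6pc2 (4.49 to 3009 TPM) and the granule membrane tetraspanin Cd63 (1.45 to 4555 TPM). The count of genes in all cells depended on how a detected gene is defined: it was 228 with any TPM above 0 and 61 at 5 TPM or above. It was 206 without cells 159 to 190, where a gene has to be detected in fewer cells to count.

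**Figure D3:**
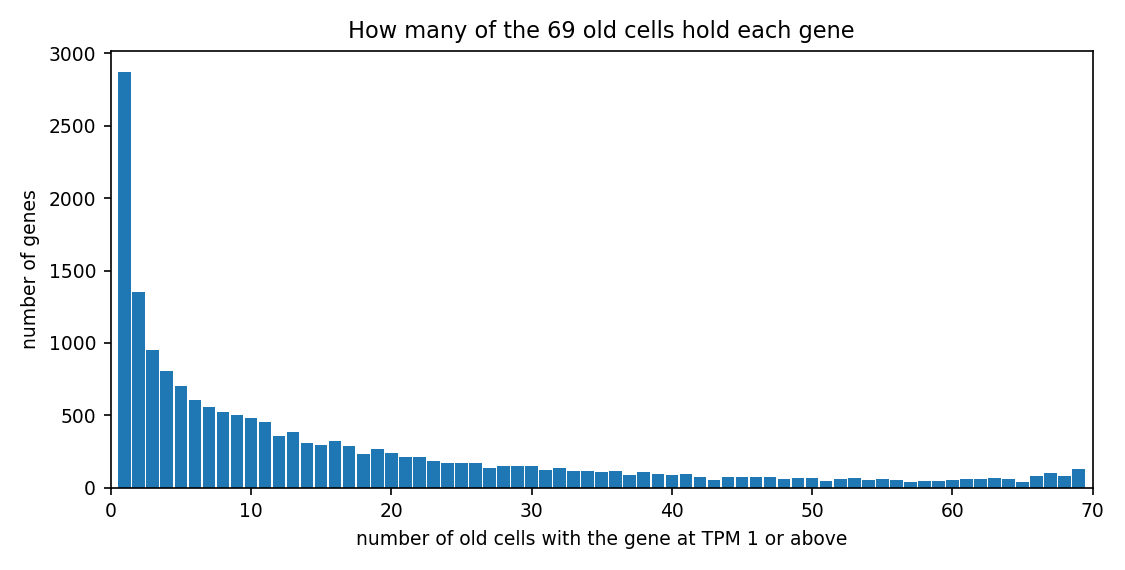
Number of genes (vertical axis) detected at a TPM of 1 or above in a given number of the 69 old cells (horizontal axis, 1 to 69). 2874 genes were seen in 1 cell, and the bar at the right end holds the 129 genes seen in all 69.

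Genes that define the beta cell were often below detection in single cells. Pdx1, a master regulator of the beta cell, was detected in 30 of 69 cells (43.5%, interval 31.6 to 56.0) and never passed 165 TPM. Nkx6-1, which represses other islet fates, was detected in 36 cells, and Neurod1 and Isl1, factors of endocrine differentiation, in 55 cells each. Mafa, an activator of the insulin genes in mature beta cells, was detected in 1 cell (1.45%, interval 0.04 to 7.81), and in 0.72% of the young cells. Of 18 beta-cell transcription factors, 0 were detected in all 69 cells and 5 in 1 to 5 cells. Over all nuclear protein-coding genes, 83 were detected in all cells and 3735 in 1 to 5 cells, with 12217 in at least 1 cell and 9019 in none. Detection in all cells is thus rare for any gene. These are shares of cells with detected RNA, not of cells that use the factor.

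Some genes that beta cells keep low were also looked up. Of 14 disallowed genes, which are silent in beta cells and active in most other tissues, 7 were detected in no cell and 4 in 1 to 5 cells, beside 27199 and 6684 of all 44448 genes. Cdkn2a, which encodes the cell-cycle inhibitor p16 and rises with age in islets, was detected in 0 of 69 cells. Taking 3 counts as the limit that a count of 0 allows, the share of cells with a detected transcript could be up to 4.35% (5.21% by the Clopper-Pearson interval). Of 11 genes of mitosis, Mki67, Aurkb, Plk1 and Foxm1 were in no cell at 1 TPM. Of nuclear protein-coding genes, 9019 were in no cell and 12217 in at least 1. The highest single value of the 11 was 40.7 TPM, for Ccna2 in cell 204. Cell 140 had 5 of the 11 at 1 TPM or above, the most of any cell. These were Top2a (3.55 TPM), Cdc20 (2.20), Ccnb2 (1.27), Ccnb1 (1.27) and Cdk1 (1.03), all near the detection limit.

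Among genes seen in 5 or fewer cells, the highest values came from the cells with markers of another type. 16 such genes passed 1000 TPM in a cell: 13 of them peaked in cell 162, such as the lipopolysaccharide co-receptor Cd14 (2686 TPM), the immune-cell membrane protein Laptm5 (2103), the Fc receptor Fcgr3 (2025) and the elastase Mmp12 (1592), and 2 peaked in cell 203, Postn, a matrix protein (4394), and Cryab, a small heat-shock protein (1005). The one left was Npy, neuropeptide Y, which is made by immature beta cells and sympathetic nerves. Npy stood at 1189 TPM in cell 163, at 1.13 in cell 172 and below 1 TPM in the other 67 cells.

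Variation between cells was read from the coefficient of variation (CV), the SD of TPM over the mean, in 3409 genes with a mean of at least 10 TPM that were detected in at least 25% of cells. The CV was lower at higher levels, with a median of 2.49 for genes of 10 to 30 TPM, of 1.29 at 100 to 300 TPM and of 0.584 above 10000 TPM. At low levels a large CV is therefore the rule: such genes were read in fewer than 50% of the cells (median 44.9%). A smoothed trend of CV on mean was drawn, and a gene was called variable where its CV was at least 1.5 times the trend and steady where it was at most the trend divided by 1.5. By this rule 215 genes were variable, 6.31% of those examined, and 390 were steady, 11.4%. In 179 of the 215 variable genes a single cell held at least 25% of all the gene's TPM, and in 36 none did. A CV from 69 cells is imprecise, above all where 1 cell carries it, and many genes lie near the borders, so these calls describe the cells at hand and are no test of a gene.

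**Figure D4:**
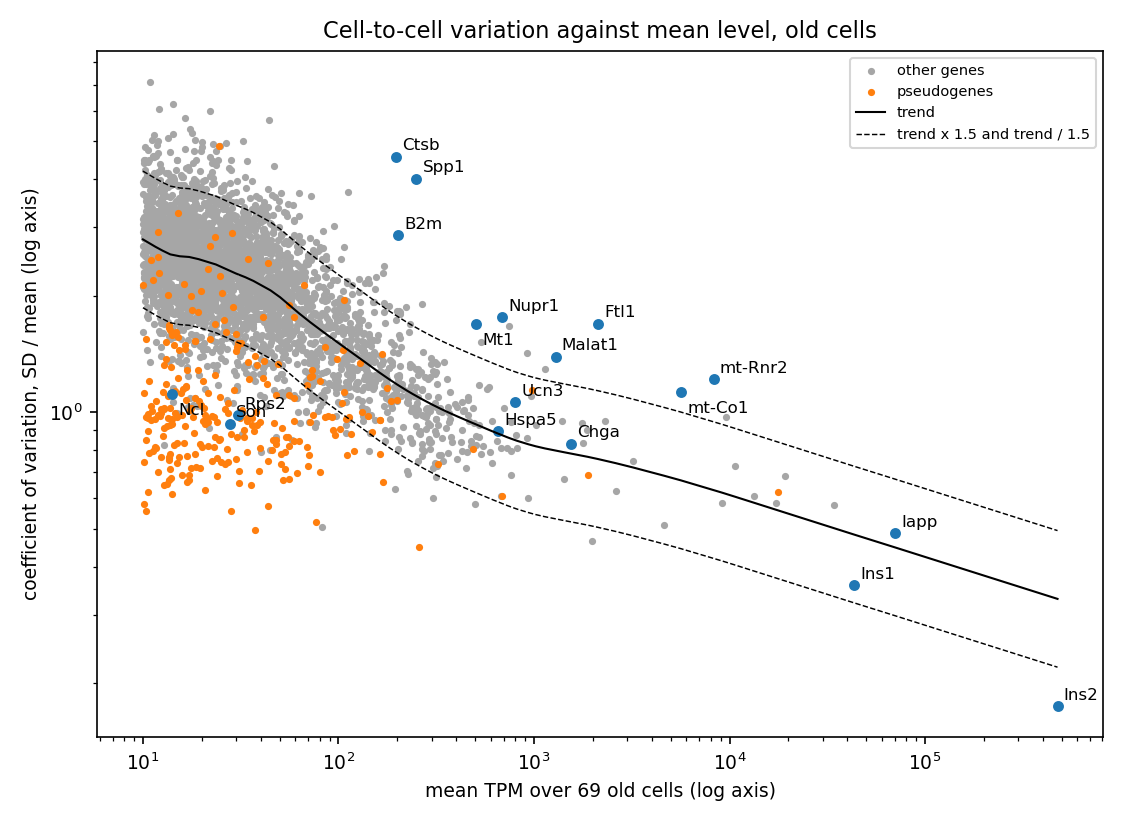
CV (SD over mean, log axis) against mean TPM over 69 old cells (log axis) for 3409 genes. The solid line is the trend, the dashed lines are 1.5 times the trend and the trend divided by 1.5, orange points are pseudogenes and blue points are named genes. Nupr1 and Ftl1 lie above the upper line, Ucn3 and Hspa5 near the trend, and pseudogenes fill the area below it.

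Nupr1 differed across many cells. Its mean was 689 ± 1213 TPM, it was below 1 TPM in 10 cells and at 1000 or above in 16 cells, and the 7 highest cells held 53.1% of its total. The highest values were 6942 in cell 191, 5192 in cell 182, 3731 in cell 181 and 2970 in cell 202, which lie in 3 different stretches. The CV was 2.02 times the trend, 2.03 times without cells 144, 162 and 203 and 2.14 times about the means of the stretches. The value was above 1.5 times the trend under all 17 alternatives tried, from 1.67 to 2.74. Ucn3 was less uneven: it passed 1000 TPM in 23 cells, and its CV was 1.25 times the trend. Ucn3 and Nupr1 were nearly unrelated across the cells (Spearman's rho of -0.08, n = 69).

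Mt1, a metallothionein that binds zinc and copper, was variable as well (1.81 times the trend, 1.91 about the stretch means). It had a median of 154 TPM, was at 1000 or above in 10 cells and peaked at 4669 in cell 158. Hprt, a purine-salvage enzyme (1.92 times the trend), and Eno1, a glycolytic enolase (1.74), peaked at 2752 TPM in cell 167 and at 2387 in cell 171. Egr1, an immediate early transcription factor (1.60), ranged from 0 to 1330 TPM around a median of 17.4. Herpud1, which serves ER-associated degradation (1.64), ranged from 0 to 2856 around 90.2, with its peak in cell 200. Without cells 200 to 207, the value for Herpud1 was 1.17, below the call. Eno1 was below it without cells 159 to 190 (1.48), and Eno1 and Egr1 were below it on TPM rescaled without insulin and mitochondrial genes (1.38 and 1.49). With the SD of log2(TPM + 1) in place of the CV, the values were 1.30 for Mt1, 1.20 for Hprt, 1.26 for Eno1, 1.13 for Egr1 and 1.20 for Herpud1, all below the call.

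A second set of variable genes stood out through the cells with markers of another type. B2m, the constant chain of class I antigen presentation, had 3472 TPM in cell 162, 3211 in cell 203 and 911 in cell 144, against a median of 9.92. Its CV was 2.44 times the trend in all 69 cells and 1.19 times without these 3. Ftl1 (28482 TPM in cell 162, median 1410) went from 2.23 to 1.20, Fth1, ferritin heavy chain, from 1.65 to 1.04, and the actin-binding peptide Tmsb4x from 1.76 to 0.856. The cysteine protease Ctsb, with 7401 TPM and 54.6% of its total in cell 162, went from 3.85 to 1.11. Spp1, by contrast, kept 3.62 times the trend without the 3 cells, through cells 177 and 207.

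A further set followed the stretches of cell numbers. Mt-Rnr2, mt-Co1, Malat1 and the small nuclear RNA Rn7sk were called variable at 1.93, 1.69, 1.75 and 1.95 times the trend. Stretches accounted for 71.5, 73.4, 64.9 and 81.8% of their variance on the log2(TPM + 1) scale, against a median of 6.21% over all genes examined. The stretches were found in an earlier analysis of these same data and are described above by such RNAs. These shares therefore describe the stretches and are no separate support for them. Rn7sk averaged 1775, 14.4, 1685 and 34.7 TPM in the 4 stretches. About the stretch means the values were 1.38 for mt-Rnr2, 1.14 for mt-Co1 and 1.44 for Malat1, all below the call, and 1.54 for Rn7sk. Chga (45.1%) and Scg2 (40.1%), both granins, were among the coding genes with the largest shares of variance between stretches: Chga averaged 2872 TPM in cells 139 to 158 and 842 in cells 159 to 190.

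Ins2 lay at 0.529 times the trend, at the far end of the level scale where few genes set the trend. Of the 390 steady genes, 214 were pseudogenes, from 275 pseudogenes examined, and 166 were protein-coding, from 3078 protein-coding genes examined. The 15 named steady genes with the lowest values were all pseudogenes of ribosomal proteins or of Oaz1, such as Rps7-ps3 (13.3 ± 8.70 TPM, 0.254 times the trend). Such copies share reads with their parent genes and with each other. The levels of the copies and of the parent genes, ribosomal protein genes among them, are therefore uncertain. Steady coding genes included Son, a splicing factor (27.8 ± 26.0 TPM, detected in 66 cells, 0.404 times the trend), Naca, a ribosome-bound chaperone subunit (0.409), the ubiquitin ligase Ubr4 (0.420), Tomm6 of the mitochondrial import channel (0.429), Rps2 (0.434) and the nucleolar protein Ncl (0.438). The list counts that follow stand beside shares of 6.31% variable and 11.4% steady over all genes examined, and short lists can lie near these by counting alone. Of 78 ribosomal proteins 14 were steady and 0 variable. Of 6 granins examined none was called either way (median 0.925), and of 19 ER chaperones 1 was variable (Herpud1) and 1 steady (Calr, median of the list 0.936). The 38 genes of nuclear oxidative phosphorylation had a median of 0.932, with 1 steady and 2 variable ones, Uqcrc1 and Atp5g3. Of 9 maturity markers examined 2 were variable, Nupr1 and the membrane tetraspanin Cd81, with a median of 1.23. Without cells 144, 162 and 203, Cd81 had 1.00. Of 7 genes of glucose sensing and secretion coupling, Slc2a2, the glucose transporter GLUT2, was variable (1.55, but 1.49 about the stretch means, below the call) and Gnas steady. Of 13 mitochondrial coding genes, mt-Co1 and mt-Nd4 were variable.

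Co-variation was read from Spearman's rho across the 69 cells in 2027 genes with a mean of at least 10 TPM that were detected in at least 50% of cells. These correlations are descriptions: the cells share chips and a fixed TPM total, and the number of detected genes moves with many transcripts. The median rho over all pairs was 0.08, with 5% of pairs below -0.15 and 5% above 0.31, and it was 0.01 after a straight line on the number of detected genes was taken out of each gene. The first principal component held 9.36% of the variance and correlated at 0.93 with the number of detected genes. The second held 4.33% and correlated at 0.79 with mitochondrial ribosomal RNA and at 0.75 with Malat1. The third held 2.25%, and cell 162 lay at its far end. Pairs of old cells correlated at a median of 0.36 over 4749 genes, 0.39 within a stretch and 0.35 between stretches. Pairs of young cells correlated at 0.37, and at 0.40 within their own stretches.

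Grouping genes by correlation gave 31 groups of 5 or more genes, 201 genes in all. In 19 of these groups at least 3 members were pseudogenes or gene models, mostly a parent gene with its copies, such as Rps23, Ppia or Rpl19. The largest group held 12 genes and followed the stretches: mt-Rnr2, mt-Co1, Rn18s-rs5, Chga, Malat1, mt-Rnr1, Rn7sk and Peg3 among them, with a median rho of 0.61, which was 0.13 about the stretch means. A group of 9 mitochondrial genes and Gm10925 (mt-Co3, mt-Co2, mt-Cytb, mt-Atp8, mt-Nd1, mt-Nd4, mt-Atp6, mt-Nd2 and mt-Nd3) had a median rho of 0.79, and 0.81 about the stretch means. The mitochondrial messenger RNAs thus split: mt-Co1 went with ribosomal RNA (rho 0.88 with mt-Rnr2) more than with mt-Co3 (0.38), and about the stretch means these values were 0.56 and 0.60.

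With protein-coding genes of the nucleus alone, 1713 genes, 8 groups of 5 to 7 genes were found. The 5 genes of 1 group serve protein folding and modification in the ER: Hspa5, the chief ER chaperone BiP, Pdia6 and Pdia4, which form disulfide bonds, Dnajc3, a co-chaperone of BiP, and Rpn2, a subunit of the complex that adds sugar chains. Hspa5 ran from 9.33 to 3010 TPM with a median of 513, Pdia6 from 0 to 1392 with a median of 245, Pdia4 from 0 to 685 with a median of 17.6, Dnajc3 from 0 to 461 with a median of 52.2, and Rpn2 from 0.309 to 1696 with a median of 137. The median rho within the group was 0.55. It was 0.55 about the stretch means, 0.48 after the line on detected genes, 0.46 after rescaling TPM without insulin and mitochondrial genes, and 0.53 without cells 144, 162 and 203. In the young cells, which had no part in forming the group, the same 5 genes had a median rho of 0.25, against 0.10 over all pairs of the 1713 genes. Hsp90b1, the ER member of the HSP90 family, correlated with Hspa5 at 0.65, more than any other gene with a promoter sequence at hand. Hspa5 had a rho of -0.06 with Ins2 and -0.16 with Ins1. The whole list of ER chaperones, 19 genes, had a median rho of 0.29 over its pairs, against 0.08 over all pairs.

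Since these genes varied together in the old cells, their promoters were searched for the ER stress element, a sequence known to recruit unfolded-protein-response factors with NF-Y, spelled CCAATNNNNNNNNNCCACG, on both strands of the 250 bases before the annotated start (RefSeq, build GRCm38.p6). The windows of 4 chaperones that hold it follow, 5′ to 3′ on the strand of the gene, with matches to the element in capitals.
Hspa5 (chr2:34771840-34772089, plus strand): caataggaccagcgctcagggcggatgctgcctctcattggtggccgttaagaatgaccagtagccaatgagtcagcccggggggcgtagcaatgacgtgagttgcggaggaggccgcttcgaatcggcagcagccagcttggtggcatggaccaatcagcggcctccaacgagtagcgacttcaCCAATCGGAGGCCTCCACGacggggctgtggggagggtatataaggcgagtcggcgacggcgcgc
Hsp90b1 (chr10:86705445-86705694, minus strand): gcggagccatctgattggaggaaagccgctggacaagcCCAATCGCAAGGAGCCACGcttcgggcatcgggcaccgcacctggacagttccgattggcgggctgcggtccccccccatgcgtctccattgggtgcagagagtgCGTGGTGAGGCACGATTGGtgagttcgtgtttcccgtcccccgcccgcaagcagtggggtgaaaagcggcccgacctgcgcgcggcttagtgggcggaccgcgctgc
Pdia6 (chr12:17266339-17266588, plus strand): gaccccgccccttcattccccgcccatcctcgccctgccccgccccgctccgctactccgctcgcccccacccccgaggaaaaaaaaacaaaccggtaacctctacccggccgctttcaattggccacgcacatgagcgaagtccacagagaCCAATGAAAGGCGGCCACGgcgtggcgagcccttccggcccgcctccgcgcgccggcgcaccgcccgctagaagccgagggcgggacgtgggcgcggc
Dnajc3 (chr14:118937682-118937931, plus strand): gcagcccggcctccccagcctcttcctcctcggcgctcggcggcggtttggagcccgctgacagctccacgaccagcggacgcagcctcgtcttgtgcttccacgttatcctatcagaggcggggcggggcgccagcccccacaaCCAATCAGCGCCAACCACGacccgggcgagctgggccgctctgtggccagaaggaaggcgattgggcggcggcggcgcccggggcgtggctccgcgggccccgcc

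The element lies 65 to 47 bases before the start in Hspa5, 98 to 80 in Pdia6 and 105 to 87 in Dnajc3. Hsp90b1 has 2 matches, 1 on each strand, at 212 to 194 and at 107 to 89 bases before its start. These letters are rare: 37 of 32851 windows of the same length hold a match (0.113%). In the windows of Pdia4 and Rpn2 these letters are not found. Of the 1713 genes, 1398 besides Hspa5 had a window, and 8 of them held a match. Their rho with Hspa5 was 0.65 for Hsp90b1, 0.59 for Pdia6, 0.54 for Calr, 0.47 for Dnajc3, 0.38 for Creld2, 0.30 for Ero1b, 0.27 for Hnrnpa3 and 0.23 for Canx. All but Hnrnpa3, a nuclear RNA-binding protein, encode proteins of the ER. The median of the 8 was 0.43, beside 0.16 over the 1398 genes. After the line on detected genes the medians were 0.37 and 0.06, and Canx had 0.00. In the young cells they were 0.24 and 0.11.

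The metallothioneins varied as a pair. Mt2 was below 1 TPM in 29 cells, had a median of 4.38 TPM and reached 998 in cell 168. Mt1 and Mt2 had a rho of 0.73, 0.69 about the stretch means, 0.71 after the line on detected genes and 0.79 in the young cells. The genes lie beside each other on chromosome 8 and are close copies. Metal response elements, bound by the zinc sensor MTF-1, were searched as TGCACNC and TGCGCNC on both strands of the same windows, and matches are in capitals.
Mt1 (chr8:94178839-94179088, plus strand): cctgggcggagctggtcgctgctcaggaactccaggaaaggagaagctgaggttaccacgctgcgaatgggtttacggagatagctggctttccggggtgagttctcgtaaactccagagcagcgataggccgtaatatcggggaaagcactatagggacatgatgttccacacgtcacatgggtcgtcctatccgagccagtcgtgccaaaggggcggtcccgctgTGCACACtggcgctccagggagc
Mt2 (chr8:94172368-94172617, plus strand): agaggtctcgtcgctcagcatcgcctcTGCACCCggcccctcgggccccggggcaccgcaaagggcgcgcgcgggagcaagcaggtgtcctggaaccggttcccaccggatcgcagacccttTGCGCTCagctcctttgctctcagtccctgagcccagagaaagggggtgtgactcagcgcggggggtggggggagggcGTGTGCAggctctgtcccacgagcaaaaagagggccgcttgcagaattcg

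The window of Mt1 held 1 match and that of Mt2 held 3. Bases outside these windows, among them those after the annotated start, were not searched. The counts may therefore miss elements of either promoter and do not rank the genes. Matches to letters this short are common: 21.4% of all windows held at least 1 and 1.26% at least 3. The 502 genes with a match and a window had a median rho of 0.07 with Mt1, as had all 1398. Mt1 was unrelated to Nupr1 (rho 0.01).

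Another coding group joined Iapp with Cpe, G6pc2, Tceal9, Hsp90b1, the mitochondrial ADP/ATP carrier Slc25a5 and the malate dehydrogenase Mdh1, 7 genes with a median rho of 0.55 and of 0.56 about the stretch means. Iapp correlated at 0.63 with G6pc2, 0.61 with Uqcrq of respiratory complex III and 0.60 with Cd63. Insulin takes up most of the fixed total, and after rescaling without insulin and mitochondrial genes these values were 0.33, 0.45 and 0.28, and the median of the group was 0.34. Ins1 and Iapp went in opposite directions (rho -0.50, -0.44 about the stretch means, -0.19 in the young cells), and the lowest partner of Ins1 was Cd63 (-0.67). Ins1 and Ins2 correlated at 0.39, and at 0.67 about the stretch means.

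No gene of the 1713 correlated above 0.55 with Ucn3 or Nupr1. The highest partners of Nupr1 were Slc7a5, a carrier of large neutral amino acids (0.52, 0.34 about the stretch means), Tmed2 (0.44), Gnai2 (0.42), Ganab (0.42) and Gc (0.41), and in the young cells these 5 values lay between 0.02 and 0.25. Of known members of the stress response that also induces Nupr1, Atf4 had a rho of 0.22 with it, Ddit3 of 0.17 and Asns of 0.29. Trib3, detected in 5 cells, had -0.01. In the young cells Atf4 had 0.23, Ddit3 0.22, Asns 0.24 and Trib3 0.38. The highest partner of Ucn3 was Actr2, a subunit of the Arp2/3 complex (0.45, but 0.03 in the young cells). The immediate early genes Fos and Egr1 correlated at 0.55 (0.49 about the stretch means, 0.33 in the young cells). Lars2, the mitochondrial leucyl-tRNA synthetase, was a partner in most of the lowest coding pairs. Its rho was -0.68 with the chaperone Canx, -0.67 with Scg2 and -0.65 with G6pc2. After the line on detected genes these were -0.49, -0.47 and -0.57, and on rescaled TPM -0.58, -0.41 and -0.61. In the young cells these were -0.29, -0.10 and -0.10.

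**Figure D5:**
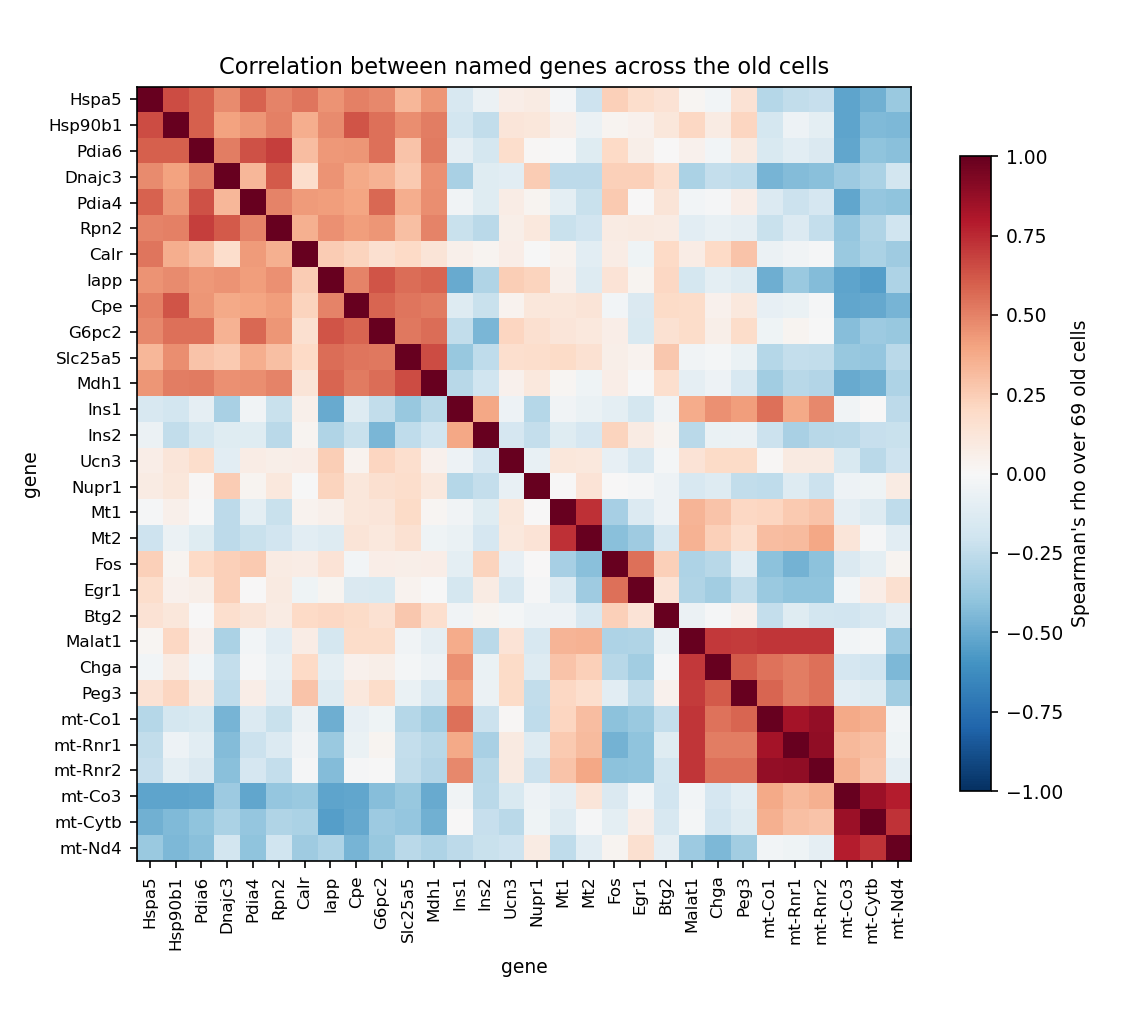
Spearman's rho over the 69 old cells (colour, from -1 in blue to 1 in red) between 30 named genes, listed along both axes. The ER chaperones form a red block with Iapp, Cpe and G6pc2. Mt1 and Mt2 pair at 0.73, and Malat1, Chga and Peg3 go with mt-Co1 and mitochondrial ribosomal RNA, whereas mt-Co3, mt-Cytb and mt-Nd4 form a block of their own.

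The spread of the old cells was set beside that of the young cells for 3126 genes with a mean of at least 10 TPM and detection in at least 25% of cells at both ages. The CV was at least 1.5 times as high in old cells for 153 genes (4.89%) and at least 1.5 times as low for 136 (4.35%), and the median CV was 2.06 in old and 1.96 in young cells, a median log2 ratio of 0.05. Among 8 immediate early genes examined, 4 had the higher CV in old cells: Fos (1.49 in old, 0.822 in young), Egr1 (2.15 and 1.10), Btg2 (1.85 and 1.21) and Dusp1 (2.55 and 1.43). Mean TPM was lower in old cells for Fos (191 against 557), Egr1 (137 against 300) and Btg2 (65.0 against 256). Across genes, CV falls with the mean. Whether the lower means account for the higher CVs of these genes was not tested. Of 77 ribosomal proteins, 7 had the lower CV in old cells and 0 the higher. Cst3, the protease inhibitor cystatin C, had a CV of 0.868 in old and 3.10 in young cells. All young cells were kept, and 5 of them had 3 or more macrophage markers at 10 TPM or above, against 1 old cell. Whether such cells raise the young CV of Cst3 or of other genes was not tested. On the scale of log2(TPM + 1) the SD passed the same fold in 3 genes upward and in 0 downward. For the beta-cell markers the CVs of old and young cells were 0.175 and 0.186 for Ins2, 0.358 and 0.332 for Ins1, 0.488 and 0.457 for Iapp, 1.06 and 1.02 for Ucn3, and 1.76 and 2.64 for Nupr1.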

How the data were processed

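RNA of single islet cells was sequenced after capture on a C1 chip, SMARTer cDNA synthesis and Nextera XT library construction, per the labels' protocols. The authors deposited 1 table of TPM values for 44448 genes in 207 cells, and every column sums to 1000000. The submitters' processing notes name CASAVA 1.8.2, FastQC and the builds GRCm38 and mm10. No source used here gives the aligner or the quantifier. TPM keeps no depth. Rows are NCBI Gene numbers, of which 39725 matched a symbol in RefSeq for GRCm38.p6.

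From these values, means, SDs, CVs, a lowess trend (fraction 0.3, statsmodels 0.14.6), Spearman correlations and average-linkage groups (distance 0.5) were computed with scipy 1.17.1. No sample was dropped or imputed, and no doublet caller was run, since it needs counts. Scripts were tested on simulated data. Each age is 1 sample, so no p-value was computed. The genes named are the most abundant, the most and least variable, the members of co-varying groups, the highest and lowest partners of the 5 markers, members of gene lists and cell type markers. Other pairs and genes, among them those of the promoter search and the single cells named, were chosen after their values were seen. Stretches were taken over from an earlier analysis of these data. Members and lists were chosen with earlier results of these data known. A few genes of these lists are not reported here and were left out of the lists. Alternatives changed the detection limit, the filter, the measure of spread, the scaling, the cells kept and the tree distance.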

Additional observations from a re-analysis of the deposited data

How the results depend on the processing

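No paired analysis was possible because the labels name no animal and number every cell separately. Of 128 alternatives to the main counts and medians, 101 moved them by less than 1.5 times or less than 1 SD. Among these was every alternative for composition and for the median correlation of cells. The SD there was that between cells or between pairs of cells. A mean or median over many cells can hardly move that far, so this says little about how stable they are. The median correlation of genes was set against the spread of single pairs, a wide margin: it was 0.08, but 0.01 after the line on detected genes and 0.03 on rescaled TPM. Genes in all cells numbered 228 with TPM above 0, 61 at TPM 5 and 206 without cells 159 to 190. Genes in 1 to 5 cells numbered 3735 when protein-coding alone, and the median of detected genes was 2697 at TPM 5. Variable genes numbered 1451 and steady genes 1764 with a mean of 1 TPM and no detection filter, 67 and 74 at a mean of 50 TPM, and 491 and 763 on rescaled TPM, where the same filter admits 5632 genes in place of 3409. With the SD of log2(TPM + 1) they numbered 6 and 207, and with log2(TPM + 10) they numbered 6 and 232. Without genes in which 1 cell holds 25% or more of the total, 36 genes were variable. Among nuclear coding genes 188 were steady. Groups of genes numbered 20 about the stretch means, 20 after the line on detected genes, 52 and 17 at tree distances of 0.6 and 0.4, 60 without cells 159 to 190, and 8 among nuclear coding genes. CVs higher in old cells numbered 3 and lower ones 0 with the SD of log2(TPM + 1), and 402 and 337 on rescaled TPM. The direction from the trend turned for Fth1 (0.917) and Tmsb4x (0.758) without cells 159 to 190, which include cell 162, and for Tmsb4x without cell 162 (0.844) or without cells 144, 162 and 203 (0.856). The alternatives that leave out cells 144, 162 and 203, and those with coding genes alone, were chosen after seeing the data. Without stated depth, a gene at 0 may have been missed in that cell, and the precision of a single cell's value is unknown.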
